A study of Mus musculus with 8 samples.

Results

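Neutrophils are made in the bone marrow from granulocyte-monocyte progenitors. Promyelocytes fill primary (azurophil) granules with serine proteases and myeloperoxidase, and their myelocyte and metamyelocyte progeny then make the proteins of secondary (specific) granules, such as lactoferrin and cathelicidin. Pre-neutrophils are the last stage of this line that still divides: they carry secondary granule RNA together with RNA of the mitotic machinery, and cells that leave the cycle go on to make the gelatinase, chemokine receptors and surface proteins of mature neutrophils. The transcription factor C/EBP epsilon, encoded by Cebpe, is required for the secondary granule genes, and C/EBP beta, encoded by Cebpb, acts in granulocyte production under stress and in macrophages.

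Cycling pre-neutrophils with secondary granule RNA, drawn by the rule given below, made up 7309 of 17384 kept cells. They came from mouse whole bone marrow that was cultured for 1 week over AFT024 cells, an irradiated stromal line from fetal liver that feeds blood progenitors, and then sorted for lack of lineage markers before capture with a 10x Genomics 3′ kit. The group named deoxycholic acid received this secondary bile acid at 35 µM, and the group named media control received the same culture medium without it. Both media contained hydrocortisone, a glucocorticoid. The sources used here do not give mouse strain, genotype or age, and a culture with lithocholic acid that the series' text describes was not analysed here. The question that the series' title poses is how secondary bile acids, through the vitamin D receptor, affect the formation of myeloid cells.

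The labels list 4 samples per group, but each cell's name carries only its group, so each group stood as 1 library. No test was run, no p-value or standard error is given, and the 95% intervals below cover counting error only: they say nothing of the spread between cultures. Differences between the libraries therefore describe these libraries and had no replicate check. Members of the deoxycholic acid library were shallower, with a median of 15561 UMIs (unique molecular identifiers, each marking 1 captured RNA molecule) and 3021 genes per cell, against 20012.5 UMIs and 3377 genes in the media control. Their median share of mitochondrially encoded UMIs was 1.73% and 1.69%. The libraries shared 25 barcodes, and 5 barcodes occurred among the members of both.

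Members were chosen by measured values, with no use of the treatment. A cell was kept with 300 or more genes detected and no more than 10% of its UMIs mitochondrially encoded. Of these, a member had Ngp and Camp together at 150 or more UMIs per 10000, the late neutrophil genes Retnlg, Mmp9 and Cxcr2 together below 10, and the 5 cycle genes Mki67, Top2a, Cenpf, Ube2c and Birc5 together at 3 or more. The values of these 10 genes are given as descriptions of the choice. Deoxycholic acid cells held 3495 members of 8321, a share of 42.0% (exact binomial interval 40.9 to 43.1), and media control cells 3814 of 9063, a share of 42.1% (41.1 to 43.1). The ratio of shares was 0.998 (0.964 to 1.03), so a difference in the share was not detectable between these libraries at their full depth. Both the lineage sort and the 3 cuts set what these shares mean.

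**Figure D1:**
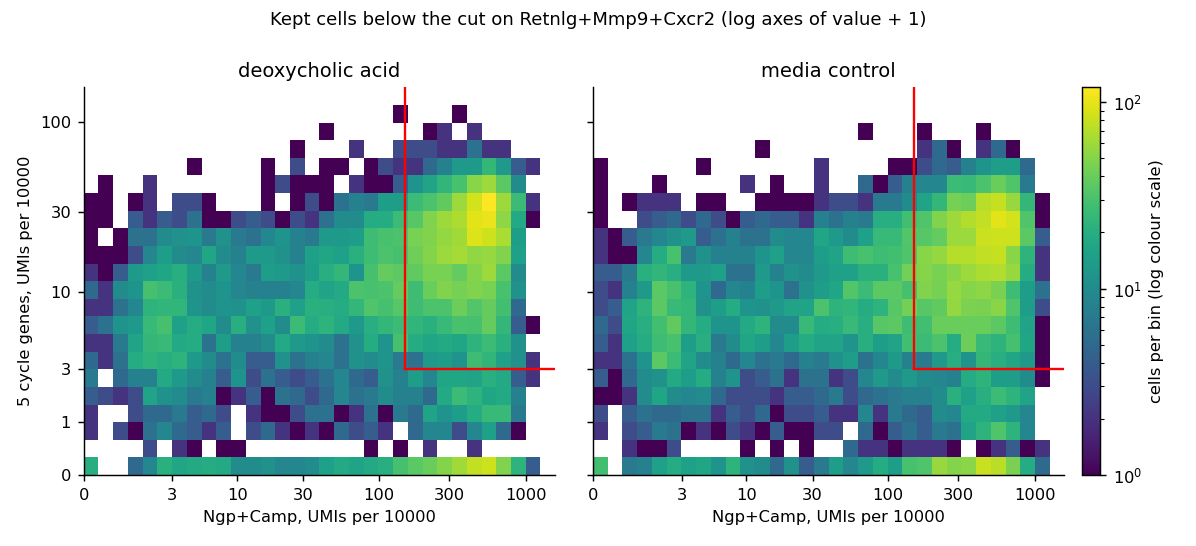
Number of kept cells below the cut on Retnlg, Mmp9 and Cxcr2, in bins of the Ngp and Camp sum (horizontal, UMIs per 10000) and of the 5-gene cycle sum (vertical, UMIs per 10000), both on log axes of the value plus 1, for deoxycholic acid (left) and media control (right). Red lines mark the cuts at 150 and 3; the 3495 and 3814 members lie above and to the right of them, in both libraries as one dense body of cells with no gap at either cut.

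The rule cut through continuous ranges. The median Ngp and Camp sum of members was 417 UMIs per 10000 with deoxycholic acid and 410 in the media control, and the median cycle sum was 19.1 and 16.4. Within 20% above the Ngp and Camp cut lay 228 deoxycholic acid and 241 media control members, and within 20% below it lay 264 and 271 otherwise eligible cells. Elane, the gene of neutrophil elastase, stood at 3340 CPM (UMIs of the gene per 1000000 UMIs) just inside this cut and 3563 just outside it with deoxycholic acid, and at 3673 and 4393 in the media control. Ltf, the lactoferrin gene, stood at 264 CPM inside and 210 outside with deoxycholic acid, and at 257 and 151 in the media control. Cells across the granule cut were thus close in Elane with deoxycholic acid, and further apart in Elane and Ltf in the media control. At the cycle cut 76 deoxycholic acid and 75 media control members lay inside and 95 and 95 cells outside, with Elane at 1890 CPM inside and 1985 CPM outside with deoxycholic acid and at 3008 and 1722 CPM in the media control. At the cut on late genes 28 and 54 members lay inside and 24 and 29 cells outside.

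The secondary granule part of the rule rested on a pair of genes that stood in opposite order in the libraries. Ngp encodes neutrophilic granule protein and Camp encodes cathelicidin, an antimicrobial peptide precursor whose human counterpart is a direct vitamin D receptor target. Ngp was at 28202 CPM with deoxycholic acid and 25139.8 CPM in the media control (log2 ratio 0.17). Camp was at 13160 CPM with deoxycholic acid and 17150 CPM in the media control (log2 ratio -0.38). Camp therefore made up 31.8% of the UMIs of the pair in the deoxycholic acid members and 40.6% in the media control members. The median cell had 29.6% (quartiles 15.1 and 41.5) with deoxycholic acid and 38.6% (23.2 and 50.1) in the media control, so the cells of the libraries overlapped widely while the median and both quartiles lay lower with deoxycholic acid.

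The promoters of 4 secondary granule genes are shown because they include both genes of the rule's granule sum and the gene with the highest fold of members over cycling cells below the granule cut (Ltf, lactoferrin, an iron-binding protein). They come from RefSeq for build GRCm38.p6 and run from 250 bases before to 50 after the annotated start; the sources used here do not give the build of the counts. Capitals mark matches on either strand to TTNNGCAA, core letters of the C/EBP motif, which 10.8% of 32851 mouse promoters of the same length held. Ngp had 2 matches, Ltf 1 and Lcn2 (lipocalin 2, which binds bacterial siderophores) 1, while this window of Camp held none of these letters. Lcn2 falls under none of the reasons given, and Chil3, a secondary granule gene not printed, held no match. With genes picked this way, the matches are no measure against the share over all promoters. A match is a description of the letters, not a site of binding. The windows are Ngp at chr9:110419558-110419857 (plus strand), Camp at chr9:109849407-109849706 (minus strand), Ltf at chr9:111019042-111019341 (plus strand) and Lcn2 at chr2:32387690-32387989 (minus strand).
Ngp: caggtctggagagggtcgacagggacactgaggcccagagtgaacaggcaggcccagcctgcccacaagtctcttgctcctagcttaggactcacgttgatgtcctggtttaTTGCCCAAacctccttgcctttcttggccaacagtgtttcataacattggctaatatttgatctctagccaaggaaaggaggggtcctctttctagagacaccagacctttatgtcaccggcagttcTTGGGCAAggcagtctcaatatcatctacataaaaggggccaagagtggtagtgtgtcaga
Camp: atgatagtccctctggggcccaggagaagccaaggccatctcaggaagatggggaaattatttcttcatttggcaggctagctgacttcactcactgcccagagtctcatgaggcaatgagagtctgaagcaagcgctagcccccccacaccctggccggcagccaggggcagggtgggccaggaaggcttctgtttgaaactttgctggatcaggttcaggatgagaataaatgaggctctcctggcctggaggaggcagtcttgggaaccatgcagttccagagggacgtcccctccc
Ltf: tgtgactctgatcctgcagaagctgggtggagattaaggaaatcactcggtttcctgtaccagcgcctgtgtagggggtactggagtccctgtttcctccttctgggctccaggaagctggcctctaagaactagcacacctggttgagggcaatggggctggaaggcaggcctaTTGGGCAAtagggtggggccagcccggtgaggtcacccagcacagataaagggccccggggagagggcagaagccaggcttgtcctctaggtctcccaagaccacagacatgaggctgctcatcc
Lcn2: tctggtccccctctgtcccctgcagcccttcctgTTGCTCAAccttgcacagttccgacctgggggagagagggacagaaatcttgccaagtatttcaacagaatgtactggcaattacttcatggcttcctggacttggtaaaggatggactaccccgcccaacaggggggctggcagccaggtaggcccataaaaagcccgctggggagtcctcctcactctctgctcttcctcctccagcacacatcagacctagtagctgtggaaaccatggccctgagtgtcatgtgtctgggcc

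The 5 cycle genes of the rule also split between the libraries. Mki67, which encodes the Ki-67 coat protein of mitotic chromosomes, was at 833 CPM with deoxycholic acid and 648 CPM in the media control (log2 ratio 0.36). Top2a, the topoisomerase that untangles replicated DNA, was at 643 and 515 CPM (0.32), and Cenpf, a kinetochore protein gene, at 241 and 205 CPM (0.23). The other members of the sum stood the other way. Ube2c, the ubiquitin-conjugating enzyme of the anaphase-promoting complex, was at 235 CPM with deoxycholic acid and 305 CPM in the media control (-0.37). Birc5, survivin of the chromosomal passenger complex, was at 229 and 266 CPM (-0.22). A sum over these 5 genes thus joined genes with unlike ratios, and the share of members past its cut did not differ detectably.

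Promoters of 3 of these cycle genes are printed because their ratios had opposite signs (Mki67 and Top2a higher, Ube2c lower) and all 3 carry the letters of the cell cycle genes homology region (CHR), TTTGAA, through which the DREAM complex acts on late cell cycle genes. Capitals mark those letters on either strand, which 17.9% of the 32851 promoters held. Mki67 and Top2a held 2 matches each and Ube2c held 1. Of the other two genes of the sum, not printed, Cenpf (higher) held 1 and Birc5 (lower) held none. The windows are Mki67 at chr7:135716330-135716629 (minus strand), Top2a at chr11:99024140-99024439 (minus strand) and Ube2c at chr2:164769679-164769978 (plus strand), of build GRCm38.p6.
Mki67: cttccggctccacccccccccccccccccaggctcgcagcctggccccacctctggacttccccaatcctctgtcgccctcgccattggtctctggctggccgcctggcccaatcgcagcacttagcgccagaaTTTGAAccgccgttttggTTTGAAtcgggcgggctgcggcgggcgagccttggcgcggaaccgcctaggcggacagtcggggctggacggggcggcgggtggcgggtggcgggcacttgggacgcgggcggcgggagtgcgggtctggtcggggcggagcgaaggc
Top2a: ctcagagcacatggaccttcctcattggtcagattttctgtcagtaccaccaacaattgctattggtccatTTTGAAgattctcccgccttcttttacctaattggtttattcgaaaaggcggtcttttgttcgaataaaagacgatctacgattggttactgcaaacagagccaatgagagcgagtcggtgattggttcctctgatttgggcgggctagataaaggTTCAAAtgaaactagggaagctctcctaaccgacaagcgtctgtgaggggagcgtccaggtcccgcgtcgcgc
Ube2c: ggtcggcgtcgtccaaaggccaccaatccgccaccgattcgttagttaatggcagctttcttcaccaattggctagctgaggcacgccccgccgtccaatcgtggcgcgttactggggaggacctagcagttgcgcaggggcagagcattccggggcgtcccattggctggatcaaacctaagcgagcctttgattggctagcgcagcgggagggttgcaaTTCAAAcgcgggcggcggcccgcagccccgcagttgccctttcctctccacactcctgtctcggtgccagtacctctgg

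Markers that the rule did not use went with the label. Esco2, the acetyltransferase that ties sister chromatids together in S phase, was at 95.3 CPM in deoxycholic acid members and 88.2 CPM in media control members, against 42.2 and 41.4 CPM in the other kept cells of these libraries. Stfa2l1, a stefin A protease inhibitor gene of the neutrophil line, was at 1377 and 1306 CPM in members, against 396 and 408 CPM in the other kept cells. Both markers were higher in members than in those cells within each library. Stfa2l1 was not particular to the members, since non-cycling cells with the same granule sum had 1594 CPM with deoxycholic acid and 1852 CPM in the media control. These genes vary with the genes of the rule, so their order is a description of the cells and no test of the rule.

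The set was compared with its nearest neighbours, each of which changes 1 part of the rule. Non-cycling cells had the same Ngp and Camp cut but a cycle sum below 3, and numbered 859 with deoxycholic acid and 903 in the media control. Cycling cells below the granule cut had the cycle sum but Ngp and Camp under 150 per 10000, and numbered 2655 and 2890. Ltf placed the members between them: it was at 1465 CPM in deoxycholic acid members and 1268 CPM in media control members, against 4564 and 3874 CPM in non-cycling cells and 59.3 and 50.1 CPM in cycling cells below the granule cut. Elane ran the other way, at 1427 and 1916 CPM in members, 666 and 696 CPM in non-cycling cells and 4668 and 5014 CPM in cycling cells below the cut. Mmp8, a neutrophil collagenase gene, stood at 57.0 and 58.9 CPM in members and at 464 and 463 CPM in non-cycling cells.

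The highest folds of members over non-cycling cells were of spindle and chromosome genes, as the rule's cycle sum would select. Nusap1, a spindle microtubule protein gene, was at 222 CPM in deoxycholic acid members and 169 CPM in media control members, against 3.40 and 4.06 CPM in non-cycling cells, and Kif11 and Prc1, spindle motor and spindle midzone genes, were also among the 10 highest. Besides Ltf and Camp, members exceeded cycling cells below the granule cut most in Stfa2 and Stfa3 (stefin A genes), Ifitm6, Olfm4 (olfactomedin 4, a specific granule protein) and Ceacam10. Olfm4 was at 33.6 and 35.5 CPM in members, against 3.37 and 2.94 CPM in those cells. Genes lowest in members against those same cells included Prg2, Prss34 and Cpa3, which eosinophils, basophils and mast cells use, and Ctsg, cathepsin G of the primary granules.

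**Figure D2:**
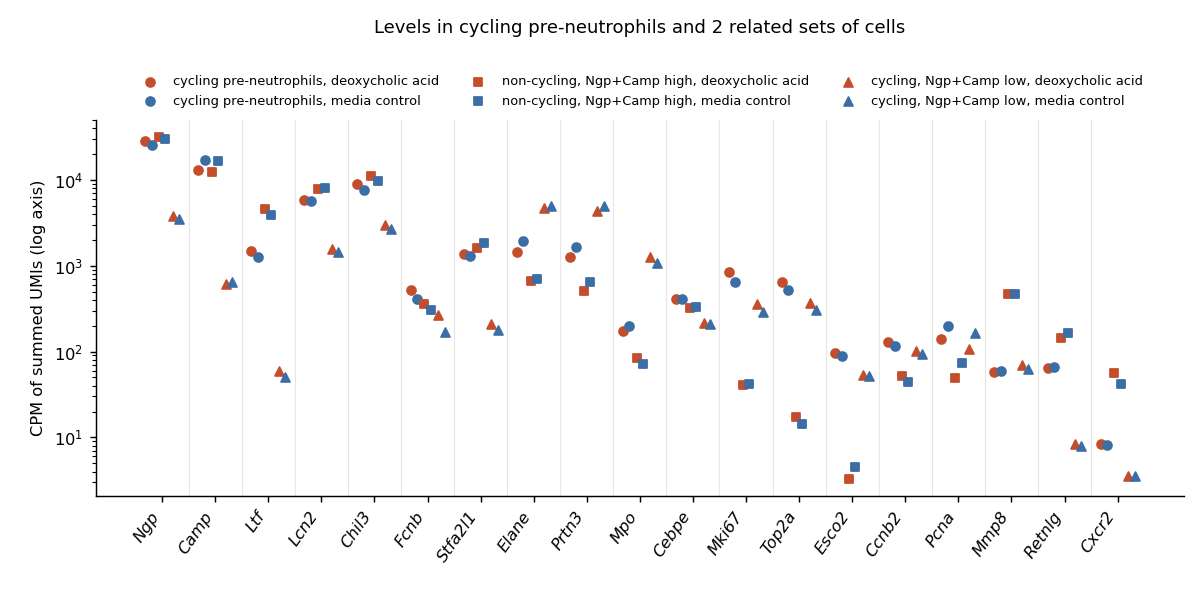
Summed UMIs as CPM on a log axis for 19 genes in members (circles), non-cycling cells with the same granule cut (squares) and cycling cells below the granule cut (triangles), with deoxycholic acid in red and media control in blue. Ltf in members lies between its levels in both neighbours, near 59 CPM at the low end and 4564 CPM at the high end; the gap between the libraries is small beside the gap between the sets of cells for most genes, and Camp and Pcna show it plainly.

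Within the members, the Ngp and Camp sum ordered the granule programme. Members of both libraries together were cut into 3 equal classes at 314 and 519 UMIs per 10000. Ltf climbed across the lower, middle and upper class through 460, 1412 and 2823 CPM with deoxycholic acid and through 414, 1243 and 2377 CPM in the media control. Elane declined through 2578, 1107 and 327 CPM with deoxycholic acid and through 3304, 1588 and 506 CPM in the media control. Ctsg declined more steeply, through 798, 205 and 56.2 CPM with deoxycholic acid and through 1223, 491 and 90.6 CPM in the media control. Cebpe moved little, through 378, 412 and 451 CPM with deoxycholic acid and 376, 414 and 438 CPM in the media control. Cells with more Ngp and Camp thus held more lactoferrin RNA and less RNA of primary granule enzymes in both libraries.

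The cycle sum ordered mitotic genes and, like the granule sum, primary granule genes. Members were cut at 12.05 and 23.9 UMIs per 10000, and the upper class held 37.1% of deoxycholic acid members against 29.9% of media control members, while the lower class held 30.7% and 35.7%. Shares of the granule classes were closer, at 32.8%, 34.3% and 32.9% with deoxycholic acid and 33.8%, 32.4% and 33.8% in the media control. Cdk1, the mitotic kinase gene, climbed across the cycle classes through 33.5, 73.1 and 119 CPM with deoxycholic acid and 54.8, 116 and 174 CPM in the media control. Pcna, the sliding clamp of DNA polymerase, was lowest in the upper class of both libraries, at 103 and 141 CPM. Elane also declined along this axis, to 734 CPM with deoxycholic acid and 852 CPM in the media control in the upper class, against 2128 and 2837 CPM in the lower one.

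**Figure D3:**
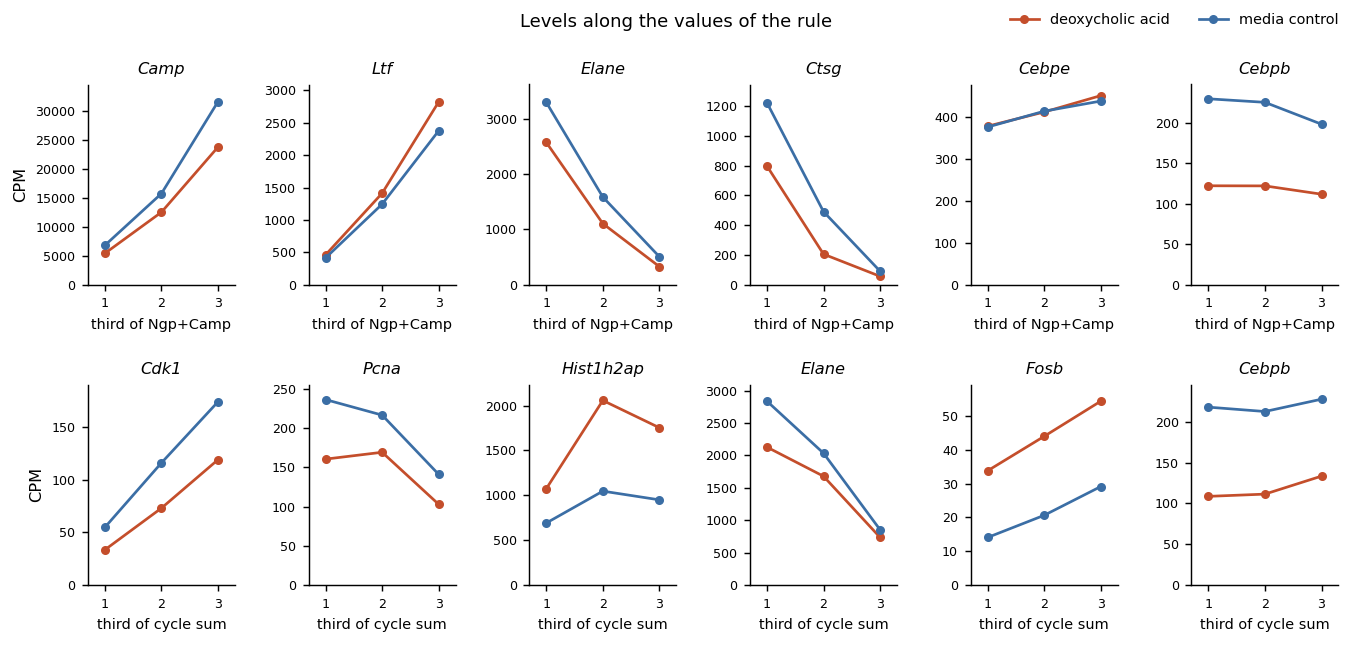
Summed UMIs as CPM in the lower, middle and upper class of the Ngp and Camp sum (top row) and of the cycle sum (bottom row), with deoxycholic acid in red and media control in blue; each axis starts at 0. Cebpb lies at 109 to 134 CPM with deoxycholic acid and at 199 to 230 CPM in the media control in every class of both axes, while Elane and Ctsg decline with Ngp and Camp in both libraries.

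Between the libraries, most genes of these cells differed little. A gene was counted as higher or lower where its CPM differed by a fold of at least 1.5; 4536 genes reached 20 CPM and 50 UMIs in their higher library and were measured. Of these, 38 were higher with deoxycholic acid (0.838%) and 69 were lower (1.52%). Higher genes were 35.5% of the 107 calls when libraries were scaled by their total UMIs, and 12.9% when scaled by TMM or by DESeq2 size factors, which counted 19 higher and 128 lower. The median log2 ratio was 0.09 and 95% of genes lay between -0.51 and 0.44; TMM moved that median to -0.01. All directions below are relative to total UMIs, and those that turn under another scaling are marked. With the same fold rule, non-cycling cells had 1.32% of 4175 genes higher and 1.37% lower, and cycling cells below the granule cut had 1.27% of 4641 genes higher and 2.46% lower.

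**Figure D4:**
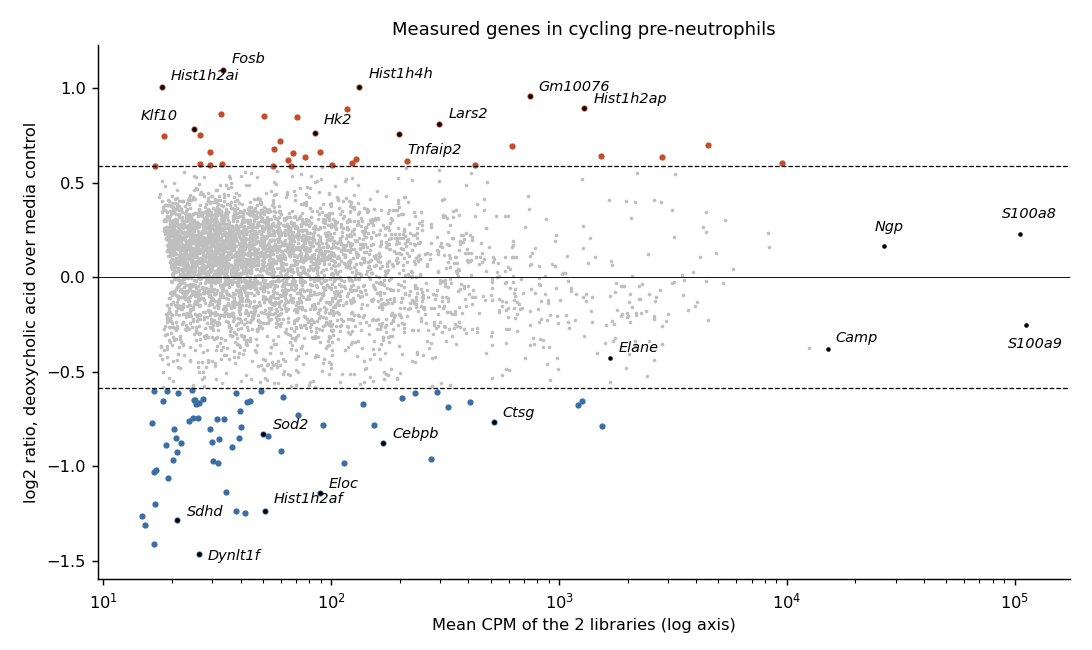
log2 ratio of deoxycholic acid over media control in members against the mean CPM of both libraries (log axis) for the 4536 measured genes; dashed lines mark a fold of 1.5, the 38 genes above it are red and the 69 below it are blue. Fosb, Hist1h4h and Hist1h2ai lie highest, near 1, and Dynlt1f lowest at -1.46, while the abundant S100a8 and S100a9 lie on opposite sides of 0.

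Cebpb had the largest difference among neutrophil transcription factors. It was at 119 CPM in deoxycholic acid members and 219 CPM in media control members (log2 ratio -0.88, -0.92 to -0.84). The ratio lay between -1.005 and -0.77 in the 3 granule and 3 cycle classes and between -1.09 and -0.67 in the 9 combinations of both, so it was lower with deoxycholic acid in every such slice. It was of like size in the neighbours, -0.89 in non-cycling cells and -0.998 in cycling cells below the granule cut. Cebpe was at 411 and 407 CPM (0.01, -0.01 to 0.04) and Spi1, the gene of PU.1, at 299 and 292 CPM (0.03); both ratios lay below 0 with TMM or DESeq2 scaling. Gfi1, a repressor needed for granulocyte fate, was at 21.9 and 28.5 CPM (-0.38), and Klf6 at 240 and 178 CPM (0.43). Over the 22 measured members of this list the median was -0.01, with 11 higher, 11 lower and Cebpb alone past the fold; with TMM 8 were higher and 14 lower. Over all 7978 genes with at least 5 CPM in either library, the minimum used for lists, the median was 0.09, with 65.1% higher, 0.840% higher past the fold and 1.75% lower past it, and with TMM 49.8% were higher.

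Primary granule genes were lower with deoxycholic acid. Of 10 measured members 9 were lower, and all 10 with TMM, with a median log2 ratio of -0.41, and Ctsg alone was past the fold (3 members with TMM), at 382 CPM with deoxycholic acid and 649 CPM in the media control (-0.77, -0.79 to -0.74). Elane was at 1427 CPM with deoxycholic acid and 1916 CPM in the media control (-0.43), and Prtn3, proteinase 3, at 1265 and 1670 CPM (-0.40). Mpo, myeloperoxidase, was at 173 and 197 CPM (-0.19), and Clec12a, an inhibitory lectin receptor gene on this list, at 219 and 218 CPM. Elane and Ctsg were lower within each class of the Ngp and Camp sum, where Elane had ratios of -0.36, -0.52 and -0.63 from the lower to the upper class. Ctsg had -0.62, -1.26 and -0.69. In the 9 combinations of granule and cycle class Elane was lower in 9, with ratios of -0.71 to -0.02, and Ctsg in 9, with ratios of -1.40 to -0.34. Prtn3 was likewise lower in 9, but Mpo was higher in 3 and lower in 6, with ratios of -0.87 to 0.29, and Clec12a was higher in 5 and lower in 4. Mpo was also higher with deoxycholic acid in cycling cells below the granule cut, at 1267 CPM, against 1065 CPM in the media control (0.25).

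Secondary granule genes differed less and in both directions. Their median log2 ratio over 16 measured members was 0.10, close to that of all genes, with 9 higher and 7 lower (8 and 8 with TMM) and none past the fold. Chil3, a chitinase-like lectin, was at 8922 CPM with deoxycholic acid and 7587 CPM in the media control (0.23), and Ltf at 1465 and 1268 CPM (0.21). Fcnb, ficolin B, was at 525 and 410 CPM (0.36). Lcn2 was at 5873 and 5690 CPM (0.05), a ratio that lay below 0 with TMM or DESeq2 scaling. Anxa1, annexin A1, had the lowest ratio of the list at 487 CPM with deoxycholic acid and 681 CPM in the media control (-0.48). Tertiary granule and late neutrophil genes had a median of -0.02 over 14 measured members and none past the fold.

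The abundant calprotectin subunits also stood in opposite order. S100a8 was at 114238 CPM with deoxycholic acid and 97499 CPM in the media control (log2 ratio 0.23), and S100a9, which encodes its partner, was at 102348 and 121731 CPM (-0.25). S100a9 made up 47.3% of the UMIs of the pair in deoxycholic acid members and 55.5% in media control members. The quartiles over cells were 44.8% and 49.6% with deoxycholic acid and 53.2% and 57.8% in the media control, so the middle ranges of the cells did not overlap. The same split stood in non-cycling cells, at 46.1% and 54.5%, and in cycling cells below the granule cut, at 44.6% and 52.8%. Camp's share of the Ngp and Camp pair was likewise lower in both neighbours, at 28.1% against 35.9% in non-cycling cells and 13.9% against 15.5% in the others. Of the stefin A genes, Stfa1 was at 3511 and 2745 CPM (0.36); the list of 11 measured calprotectin and stefin A genes had a median of 0.11, with 9 higher (7 with TMM), and its stefin A members are near-identical copies between which reads could be split.

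Genes of receptors and of the oxidase stood near the median of all genes. Of 18 measured receptor and adhesion genes 15 were higher (10 with TMM), with a median log2 ratio of 0.12 and none past the fold. Csf2rb, a GM-CSF receptor chain shared with other cytokines, was at 104 CPM with deoxycholic acid and 79.5 CPM in the media control (0.39), and Csf3r, the G-CSF receptor, at 27.0 and 24.7 CPM (0.13). Among the NADPH oxidase subunits, Cybb was at 1045 and 896 CPM (0.22) and Cyba, its membrane partner, at 2180 and 2364 CPM (-0.12).

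Replication and mitosis genes outside the rule had mixed ratios. The 29 measured DNA replication genes had a median log2 ratio of 0.09, which lay at -0.01 with TMM, with 18 higher and 11 lower (13 and 16 with TMM) and none past the fold (1 lower past it with TMM). Pcna was at 141 CPM with deoxycholic acid and 199 CPM in the media control (-0.50), while Mcm5, of the replicative helicase, was at 114 and 93.8 CPM (0.28). The 41 measured mitosis genes had a median of 0.18, with 30 higher and 11 lower (26 and 15 with TMM) and none past the fold (2 lower past it with TMM). Cdk1 was at 80.7 and 115 CPM (-0.51) and Cks1b, a subunit of that kinase, at 92.2 and 132 CPM (-0.51). Hmgb2, a chromatin protein abundant in dividing cells, was at 4956 and 3904 CPM (0.34), and Spc25, of the kinetochore, at 106 and 74.2 CPM (0.52). Pcna was lower in 9 of 9 combinations of granule and cycle class, with ratios of -0.60 to -0.29. Of 24 cyclin and cyclin-dependent kinase inhibitor genes, with a median of 0.07 that TMM moved to -0.02, only E2f3 was past the fold, at 40.1 and 26.5 CPM (0.60, and 0.51 with TMM).

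Replication-dependent histone genes, whose messages normally lack a poly(A) tail, held 7 of the 20 most extreme ratios among the genes measured at 20 CPM. Of 49 measured members 34 were higher and 15 lower, 13 and 2 of them past the fold (31 and 18, and 10 and 2, with TMM), with a median log2 ratio of 0.22. The share that was higher was 69.4%, against 65.1% of all 7978 genes with at least 5 CPM (63.3% and 49.8% with TMM). Past the fold, 26.5% were higher and 4.08% lower, against 0.840% and 1.75% of all genes. Hist1h2ap was at 1679 CPM with deoxycholic acid and 903 CPM in the media control (0.89), and Hist1h4h at 177 and 88.1 CPM (1.01). Hist1h2af stood the other way, at 30.5 and 71.8 CPM (-1.23). Many of these genes closely resemble others of the same histone type, so reads could be split between such copies. A kit that captures poly(A) tails may count histone messages only in part. The part of either in these ratios was not tested. Each of the 3 kept its direction in the 9 combinations of granule and cycle class. In cycling cells below the granule cut the ratios were 1.13, 1.11 and -1.12.

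Immediate early genes, the first to respond to growth factors and stress, included the highest ratio among the 4536 genes measured at 20 CPM. Fosb was at 45.4 CPM with deoxycholic acid and 21.3 CPM in the media control (log2 ratio 1.10, 1.01 to 1.18). Klf10, a TGF-beta inducible factor, was at 31.7 and 18.4 CPM (0.78), and Dusp1, a MAP kinase phosphatase, at 74.4 and 45.2 CPM (0.72). The AP-1 subunits Jun and Fos were at 486 and 332 CPM (0.55) and at 152 and 109 CPM (0.49). Of 16 measured members 12 were higher, 4 of them past the fold (10 and 3 with TMM), with a median of 0.32. Zfp36, which destabilises cytokine messages, had the lowest ratio at 15.5 and 19.8 CPM (-0.36), and Junb was at 30.01 and 31.4 CPM. Fosb climbed with the cycle sum in both libraries, through 33.8, 44.1 and 54.5 CPM with deoxycholic acid and 14.1, 20.7 and 29.2 CPM in the media control, and stayed higher with deoxycholic acid in each class.

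Inflammatory genes had no common direction. Tnfaip2, a TNF-induced gene, was at 248 CPM with deoxycholic acid and 147 CPM in the media control (0.75), while Sod2, the mitochondrial superoxide dismutase that NF-kappaB induces, was at 36.3 and 64.5 CPM (-0.83). Nfkbia, the inhibitor of NF-kappaB, was at 311 and 397 CPM (-0.35) and the chemokine gene Ccl3 at 32.7 and 47.8 CPM (-0.55). The median over 12 measured members was -0.03, with 5 higher and 7 lower, and Tnfaip2 and Sod2 alone past the fold; with TMM 4 were higher and 8 lower, 1 and 2 of them past the fold. Of 7 measured interferon response genes 5 were higher (median 0.27), 1 of them past the fold (none with TMM), and 1 was lower past it, namely Bst2 at 11.9 CPM with deoxycholic acid and 17.9 CPM in the media control.

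Glycolysis and hypoxia genes were mostly higher with deoxycholic acid, and nuclear genes of oxidative phosphorylation mostly lower. Of 28 measured glycolysis and hypoxia genes 24 were higher (22 with TMM), with a median log2 ratio of 0.21. Past the fold, 2 were higher and none lower (1 higher and 1 lower with TMM). The share that was higher was 85.7%, against 65.1% of all 7978 genes with at least 5 CPM (78.6% and 49.8% with TMM). Hk2, the inducible hexokinase, was at 106 CPM with deoxycholic acid and 62.8 CPM in the media control (0.76, 0.71 to 0.82), and Bnip3, a mitophagy receptor induced by low oxygen, at 109 and 69.0 CPM (0.66), past the fold here and just under it with TMM at 0.57. Eno1, enolase, was at 536 and 403 CPM (0.41), but Gapdh was at 2204 and 2280 CPM (-0.05) and Ankrd37, a hypoxia-induced gene, at 13.8 and 19.5 CPM (-0.50). Of 22 nuclear oxidative phosphorylation genes 17 were lower (19 with TMM; median -0.14). Sdhd, an anchor of succinate dehydrogenase in the membrane, was past the fold at 12.3 and 29.9 CPM (-1.28), whereas Sdha, the flavoprotein of the same enzyme, was at 62.4 and 54.8 CPM (0.19). The 13 mitochondrially encoded genes had a median of 0.02 that TMM moved to -0.07, with mt-Nd3, a complex I subunit, at 516 and 343 CPM (0.59, and 0.50 with TMM).

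Cytosolic ribosomal protein genes on the list were all lower, 19 of 19, with a median log2 ratio of -0.21 and none past the fold (1 with TMM). Rps3 was at 1362 CPM with deoxycholic acid and 1996 CPM in the media control (-0.55), and Rpl32 at 3460 and 3899 CPM (-0.17). The list did not hold the whole family. Among genes past the fold, looked up after their values were seen, Rps29 was higher at 5549 and 3422 CPM (0.70), as were Rps27 at 1860 and 1192 CPM (0.64) and Rpl38 at 3454 and 2221 CPM (0.64), both under the fold with TMM (0.55 and 0.54), while Rpl9 was lower at 1130 and 1952 CPM (-0.79). Gm10076, a locus named as a predicted gene, was also among the highest ratios at 981 and 506 CPM (0.96). The family thus held members past the fold in both directions.

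Of the other lists, those of the unfolded protein response and of cholesterol genes were close to the median of all genes, and those of the Bcl2 family and of vitamin D receptor targets lay below it. Unfolded protein response genes had a median log2 ratio of 0.09 over 21 measured members, with Hspa5, the main chaperone of the endoplasmic reticulum, at 534 CPM with deoxycholic acid and 501 CPM in the media control (0.09) and Sdf2l1, a chaperone partner, past the fold at 67.9 and 117 CPM (-0.78). Cholesterol synthesis and uptake genes had a median of 0.14 over 20 measured members with none past the fold; Fdps, farnesyl diphosphate synthase, was at 684 and 854 CPM (-0.32). Of 11 Bcl2 family genes, with a median of -0.08, Mcl1, the survival factor of neutrophils, was at 170 and 157 CPM (0.11) and Bcl2a1b was past the fold at 9.84 and 15.3 CPM (-0.63). The list of vitamin D receptor targets held 13 genes, of which 8 reached 5 CPM in either library. Cyp24a1, on this list, was at 0 CPM in every granule class of both libraries' members. Camp was on the list although only its human counterpart is named above as a direct target. Of the 8 measured, 6 were lower and 2 higher, and their median was -0.24. Without Camp, which the rule used, 5 of 7 were lower and the median was -0.14. Cebpb was the only one past the fold. Cdkn1a, which encodes the p21 cell cycle inhibitor, was at 41.7 and 35.5 CPM (0.23), and Tgfb1 at 111 and 85.2 CPM (0.39).

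**Figure D5:**
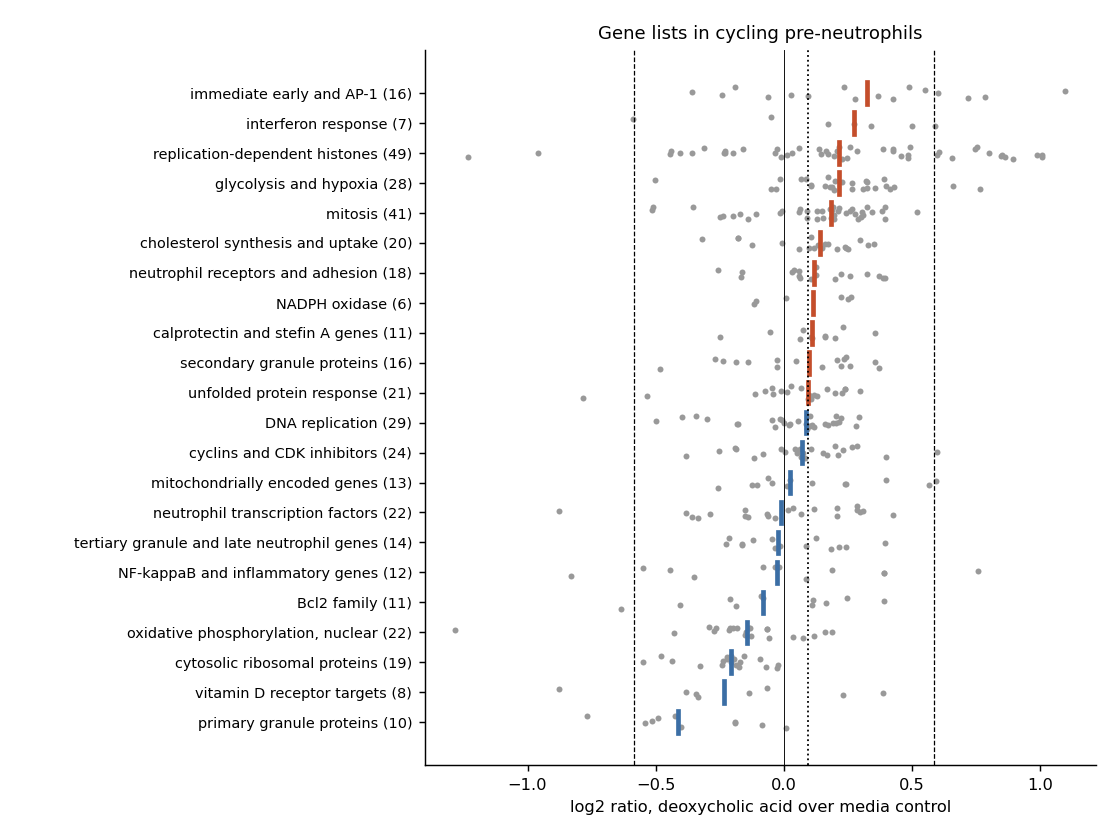
log2 ratio of deoxycholic acid over media control in members, as a grey point for each gene with at least 5 CPM in either library and a bar for the median of each list (red above, blue below the median of all 7978 such genes, dotted at 0.09); the number of measured genes is in brackets and dashed lines mark a fold of 1.5. Primary granule proteins have the lowest median, -0.41, and immediate early genes the highest, 0.32; the histones spread widest, from -1.23 to 1.01.

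Outside the lists, the genes with the lowest ratios among those measured at 20 CPM had varied roles. Dynlt1f, a dynein light chain gene, was at 14.0 CPM with deoxycholic acid and 38.5 CPM in the media control (log2 ratio -1.46, -1.58 to -1.35). Med31, of the Mediator complex, was at 9.07 and 24.1 CPM (-1.41), Srsf9, a splicing factor, at 22.8 and 53.5 CPM (-1.23), and Eloc, elongin C, at 55.5 and 122 CPM (-1.14). Washc3, Unc50, Churc1 and Magohb completed the 10 largest negative ratios among the genes measured at 20 CPM, between -1.31 and -1.20. Apart from Fosb, Gm10076 and 6 histone genes, the 10 largest positive ratios held Dleu2, a long noncoding RNA, at 152 and 82.0 CPM (0.89) and Lars2, a mitochondrial leucyl-tRNA synthetase, at 380 and 216 CPM (0.81). In the neighbours Dynlt1f had ratios of -1.04 and -1.20, Eloc of -1.08 and -1.23, and Dleu2 of 0.91 and 1.01, so these differences were not limited to the members.

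Log2 ratios also went with transcript length. Cut into 5 equal classes by GENCODE transcript length, from the shortest to the longest, 4520 measured genes had medians of 0.00, 0.03, 0.04, 0.12 and 0.18. The Spearman correlation across genes, which are not independent replicates, was 0.27 and is given as a description. Depth also differed between the libraries; the part of length and of depth in these ratios was not tested.

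The difference itself between members and non-cycling cells was then measured, as the log2 ratio in members minus that in non-cycling cells, over 3810 genes measured in both. Its median was 0.00 and its central 95% ran from -0.28 to 0.28. By this measure 2 genes passed the fold, both with a lower ratio in members. Utp14a, of ribosomal RNA processing, was at 21.2 CPM in both libraries' members but at 20.8 CPM with deoxycholic acid and 13.2 CPM in the media control among non-cycling cells (difference -0.65, -1.01 to -0.30). C1qbp, a mitochondrial matrix protein gene, had a difference of -0.60 (-0.89 to -0.31). Mpo, at 85.2 and 71.1 CPM in non-cycling cells, had a difference of -0.45 (-0.61 to -0.29), so that its ratio was -0.19 in members and 0.26 in non-cycling cells. The largest positive differences were those of Dtl, a ubiquitin ligase subunit active in S phase (0.56, 0.25 to 0.88), and Lpl, lipoprotein lipase (0.54, 0.31 to 0.77). Slc38a10, a solute carrier gene (0.52, 0.21 to 0.83), and Klf10 (0.52, 0.20 to 0.83) followed. The genes named here were picked as extremes of the 3810, and their intervals take no account of that choice. Against cycling cells below the granule cut, over 4082 genes, the central 95% ran from -0.16 to 0.21 and no gene passed the fold. Against those cells the differences of Dtl, Lpl and Slc38a10 were 0.19, 0.28 and -0.05. That of Klf10 was -0.34 (-0.47 to -0.20), as its ratio there was 1.12, against 0.78 in members. Those of Utp14a, C1qbp and Mpo were 0.22, -0.08 and -0.44.

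Most markers of other cell types were low in members beside Elane or Ltf, though some lists stood near their level in the other kept cells. Hba-a1 and Hba-a2 of red cells, Cd3e and Ms4a1 of lymphocytes and Siglech of plasmacytoid dendritic cells had no UMI in either library's members. The summed level of 10 basophil and mast cell markers was 34.0 CPM with deoxycholic acid and 51.6 CPM in the media control, with 1 marker (Tpsb2) at 0 in both, against 237 and 289 CPM in the other kept cells. Prss34, the basophil protease, was at 1.25 and 11.2 CPM, and 5 cells held 63 of its 73 UMIs with deoxycholic acid and 689 of its 898 UMIs in the media control. Mcpt8, another gene of that list, had more UMIs, 1315 with deoxycholic acid and 2287 in the media control, and was less concentrated. It had a UMI in 16.4% and 19.3% of members, and 5 cells held 28.8% and 26.4% of its UMIs. The summed level of 13 monocyte and macrophage markers was 221 and 177 CPM in members and 365 and 311 CPM in the other kept cells, and most of it in members was F13a1 at 173 and 135 CPM. The 10 lymphoid markers summed to 72.1 and 96.2 CPM in members and 144 and 174 CPM in the other kept cells, most of it in members Nkg7 at 63.4 and 87.2 CPM, and 3 of them were at 0. Unlike Prss34, these were spread over cells: F13a1 had a UMI in 68.8% of deoxycholic acid and 68.5% of media control members, Nkg7 in 40.3% and 49.5%, and the eosinophil list's Ear2 in 54.96% and 60.9%. The 8 eosinophil markers summed to 112 and 110 CPM in members and 127 and 157 CPM in the other kept cells, and the 10 stromal markers, 2 of them at 0, to 7.49 and 7.10 CPM in members and 8.75 and 7.17 CPM in the others. Sums for dendritic (15.4 and 21.5 CPM, 9 markers, 2 at 0), red cell and megakaryocyte (6.70 and 6.41 CPM, 11 markers, 5 at 0) and stem cell (51.8 and 49.2 CPM, 10 markers) lists were below those in the other kept cells, at 62.3 and 79.5, 23.6 and 34.7, and 109 and 112 CPM. The part of such cells in the ratios was not tested.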

How the data were processed

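Single-cell RNA was measured in mouse bone marrow cultures of 2 groups. Per the labels, lineage-negative cells entered a 10x Genomics Chromium 3′ kit (version 3.1) at a target of 8000 per sample. The submitters' processing notes name Cell Ranger 6.0, and the sources used here do not give genome build or annotation. The values the authors deposited are raw UMI counts of 17866 cells.

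UMIs of member cells were summed per group and divided by their total to give CPM (58204463 UMIs with deoxycholic acid and 80448491 in the media control). The edgeR test planned for separate samples was not run, since each group was 1 library. Intervals of gene ratios are exact binomial (Clopper-Pearson) at 95%. Those of the ratio of shares and of differences between sets of cells are normal approximations on the log scale. All cover counting error only, and UMIs of 1 cell are not independent. Genes that reached 20 CPM and 50 UMIs in their higher library were counted at a fold of 1.5, and list members that reached 5 CPM in 1 library or both entered list medians. Named genes were the 10 largest ratios in each direction, the 10 largest differences from non-cycling cells in each direction, the 10 highest folds of members over each neighbouring set, the 4 most abundant and those past the fold in each list, and the genes of the rule and markers; other genes named for their role were chosen after their values were seen. The members and lists were chosen with earlier results of these data known, so none is independent support. Scrublet in scanpy 1.11.5 marked 1 cell per library at its automatic threshold and so had not worked; all cells were retained, and dropping the highest 6% of scores was an alternative. Scaling alternatives used edgeR 4.0.16 and DESeq2 1.42.0 in R 4.3.3. Other steps used Python 3.11.15, numpy 2.4.6, scipy 1.17.1 and pandas 2.3.3. The ratio step was tested on simulated data.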

Additional observations from a re-analysis of the deposited data

How the results depend on the processing

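Each group was 1 library, so no replicate could be left out. No paired analysis was possible because the lettered samples of the labels could not be told apart in the cell names. With every kept cell thinned to 5000 UMIs, 651 deoxycholic acid and 669 media control cells were left out as shallower. Members were then 43.8% and 42.3%, a ratio of 1.037, just above the main interval's upper end of 1.034. Unthinned, the same cells gave 44.7% and 44.0%. Under the other cuts on Ngp and Camp, the cycle sum, late genes, detected genes, mitochondrial share and scrublet scores the ratio of shares stayed between 0.995 and 1.01. With TMM 19 genes were higher and 128 lower, and with DESeq2 size factors likewise 19 and 128. With no minimum on CPM and UMIs 2683 of 18659 genes were higher and 1961 lower. With at least 50 CPM, 27 of 2237 genes were higher and 29 lower. Of 38 named genes past the fold, 7 (Bnip3, Dusp1, E2f3, Hist1h3f, Rpl38, Rps27 and mt-Nd3) were under it in at least 1 alternative. Of 195 single genes recomputed 18 changed sign in at least 1 alternative, Cpa3 at 3.14 and 4.34 CPM and the others with ratios between -0.04 and 0.18 (among them Cebpe, Clec12a, Csf3r, Cxcl2, Cxcr2, Hist1h1e, Kif11, Lcn2, Ly6c2, Pdia3, Rac2, Rrm2, Spi1, Stfa2l1, Utp14a and mt-Co3), as did 7 of 22 list medians: those of the Bcl2 family, DNA replication, NF-kappaB and inflammatory genes, cyclins, mitochondrially encoded genes, neutrophil transcription factors and tertiary granule genes. The difference of Ctsg from non-cycling cells was -0.43 and became 0.07 with a cycle sum of at least 5; the causes were not tested. Depth limits the non-cycling cells most, at a median of 8051 UMIs with deoxycholic acid and 10520 in the media control.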
